A study of Mus musculus with 8 samples.

Results

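The enzymes described here are those of glutathione and thioredoxin chemistry together with the enzymes that remove superoxide, peroxides and heme. Members were chosen by gene symbol alone: the glutathione S-transferases (symbols beginning Gst with a class letter, and Gstcd), the numbered glutathione peroxidases (Gpx), peroxiredoxins (Prdx) and superoxide dismutases (Sod), every symbol beginning Txn, and Cat, Gclc, Gclm, Gsr, Gss, Hmox1, Hmox2, Nqo1 and Srxn1. This rule took 66 of the 19884 genes in the table, all of them annotated as protein coding. The rule itself used no measured value, but it was set with earlier results of these data known. They were measured by total RNA sequencing in whole brain (4 libraries) and whole uterus (4 libraries) of pregnant mice. All were untreated wild-type C57BL/6J females of 6 to 10 weeks, mated with fertile males and dissected on day 4 of gestation, counting the day of the vaginal plug as day 1, and all had blastocysts in the uterine flush. There was no unmated or later group, so the comparison is between organs at a single time.

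Glutathione is a small thiol made by glutamate-cysteine ligase and glutathione synthetase. Glutathione peroxidases spend it to reduce hydrogen peroxide and lipid peroxides, glutathione S-transferases join it to reactive compounds, and glutathione reductase returns the oxidised form with NADPH. Thioredoxin and its reductase run a parallel NADPH-driven chain that serves most peroxiredoxins, while superoxide dismutases and catalase need neither thiol. Many of these genes are known targets of the transcription factor NRF2, and several of the enzymes are selenoproteins, in which a TGA codon is read as selenocysteine. In the uterus before implantation these enzymes are studied for control of oxidants around the embryo, and in brain for protection of neurons and glia.

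Libraries held 35394603 to 47790178 counts, and the 66 genes together took 0.269 to 0.273% of the counts of the brain libraries and 0.555 to 0.578% of those of the uterus libraries. Organ labels held against fixed markers: the summed level of 5 neuronal markers was 4896 to 5131 CPM (counts scaled to a common library total with TMM factors) in brain and 3.10 to 6.36 in uterus, and that of 5 smooth muscle markers 34.7 to 42.5 in brain and 4714 to 5540 in uterus. Adipocyte markers summed to 0.738 CPM or less in every library. The sums of macrophage and microglia markers overlapped, 112 to 134 in brain and 111 to 145 in uterus. The part of the organs' cell types in each gene's difference was not tested. In bulk tissue, fewer cells of a type and less RNA per cell cannot be told apart. The labels do not say whether a brain and a uterus of the same number came from the same mouse, and p-values measure the spread between these libraries. Levels below are TMM-scaled CPM for libraries 1 to 4 in that order, folds come from the log2 fold change of uterus over brain with its SE, and adjusted p-values come from the edgeR quasi-likelihood test over 16074 genes at a threshold of 0.05. Those given as of the 2-fold test come from edgeR's test against a 2-fold change on the same fit. Levels of different genes are set side by side only as CPM per kilobase of annotated exon.

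Of the 66 genes, 60 had enough counts for the test: 35 were higher in uterus, 18 were higher in brain and 7 did not pass. As background, 87.0% of all genes tested differed between these organs, 43.5% being higher in uterus and 43.6% higher in brain, so that the 53 antioxidant genes that passed are a share near that of all genes. Past a 2-fold change, the counts were 19 for uterus and 6 for brain, where all genes gave 23.5% and 25.8%, and 49.3% in either direction. The libraries of the organs did not overlap for 50 of the 60 genes, against 84.1% of all genes. The median log2 fold change of the 60 was 0.36, beside 0.01 for all genes tested. The same shares of all genes are the background for the counts of each family below, and no such count was tested. The 6 genes without a test were Gsta1, Gstm3, Gstt4, Prdx6b, Txndc2 and Txndc8, all under 1 CPM in every library, and Txndc8 had no count at all.

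**Figure D1:**
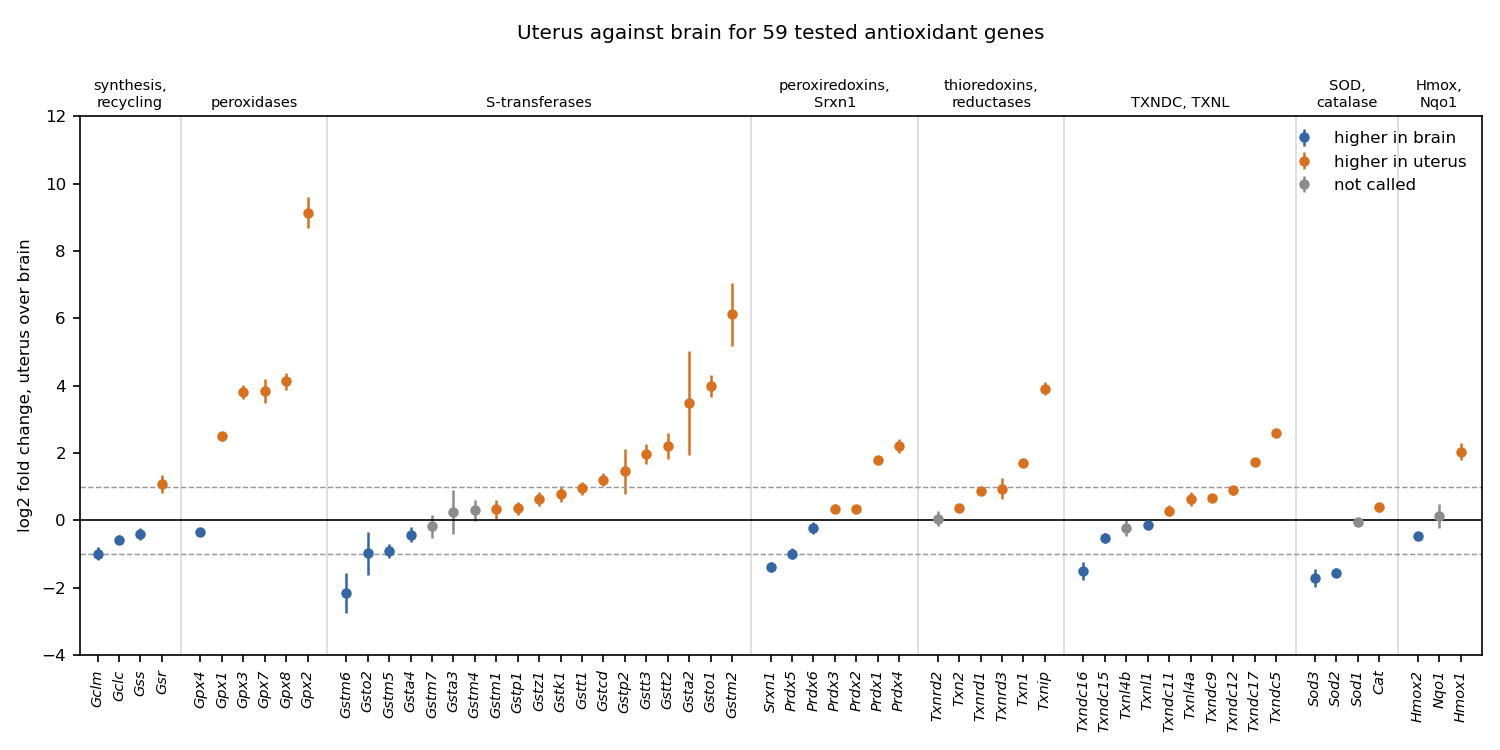
Log2 fold change of uterus over brain (vertical axis, with 95% interval from edgeR) for 59 tested antioxidant genes, grouped by role and coloured by call at an adjusted p of 0.05; dashed lines mark a 2-fold change, and Gpx6, which had no count in uterus, is not drawn. The peroxidases Gpx1, Gpx2, Gpx3, Gpx7 and Gpx8 lie above the upper dashed line, while Gclc, Gclm and Gss of glutathione synthesis lie between 0 and the lower line.

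The glutathione peroxidases differed most. Of the 7, 5 were higher in uterus and 2 higher in brain, the 5 all past 2-fold, with a median log2 fold change of 3.80. Their catalytic residue is selenocysteine in Gpx1 to Gpx4 and cysteine in the others, and the codon is shown here because both kinds fell on both sides of the comparison. Each line gives the coding strand of the GENCODE transcript on GRCm38, with the catalytic codon in capitals: TGA for selenocysteine, TGT or TGC for cysteine.
Gpx1: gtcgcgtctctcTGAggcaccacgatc
Gpx2: gtggcgtcactcTGAggaacaactacc
Gpx3: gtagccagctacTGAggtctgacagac
Gpx4: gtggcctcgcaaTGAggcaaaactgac
Gpx6: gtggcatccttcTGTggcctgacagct
Gpx7: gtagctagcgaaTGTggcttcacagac
Gpx8: gtggctagtgacTGCcgcttcacagac
These codons lie in coding exons, at chr9:108339451-108339453 on the plus strand for Gpx1, chr12:76795256-76795258 on the minus strand for Gpx2 and chr10:80054737-80054739 on the plus strand for Gpx4. Of 24 mouse genes annotated with a selenocysteine, 7 are among the 66.

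Gpx2, the selenium-dependent peroxidase best known from the lining of the gut, stood farthest apart. It gave 0.162, 0.277, 0.277 and 0.189 CPM in brain and 122, 154, 142 and 103 CPM in uterus. Brain libraries held 6 to 12 reads each, so the organs did not overlap and the brain level is close to the limit of counting. Its log2 fold change was 9.14 ± 0.20 (SE), a 563-fold difference, with an adjusted p of 5e-11. Gpx8 and Gpx7, cysteine peroxidases of the endoplasmic reticulum, followed the same direction. Gpx8 gave 6.05, 7.06, 5.04 and 6.58 CPM in brain and 116, 104, 96.9 and 115 CPM in uterus, 17.5-fold higher (log2 4.13 ± 0.11). Gpx7 gave 2.32, 3.23, 2.91 and 2.32 CPM in brain and 47.5, 37.5, 31.7 and 39.3 CPM in uterus, 14.4-fold higher (log2 3.85 ± 0.16). In both genes every uterus library lay far above every brain library. Gpx3, the secreted form that circulates in plasma, averaged 17.9 ± 2.29 CPM in brain and 250 ± 9.95 CPM in uterus (SD, n = 4 each), 14.0-fold higher.

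Gpx1, the cytosolic enzyme for hydrogen peroxide, gave 56.3, 59.3, 57.9 and 55.4 CPM in brain and 322, 349, 307 and 312 CPM in uterus. That is a 5.64-fold difference (log2 2.49 ± 0.057, adjusted p = 6e-11 by edgeR), with a narrow spread in both organs. Gpx4 reduces peroxides within membrane phospholipids and guards cells against ferroptosis. It went the other way, with 142, 162, 152 and 157 CPM in brain against 119, 125, 115 and 119 CPM in uterus. Its brain libraries were all above its uterus libraries, but by only 1.28-fold, and with upper-quartile scaling the difference no longer passed (adjusted p = 0.081). Gpx6 was named after its values were seen, since it lies under 1 CPM. It held 135 reads over the brain libraries (0.432, 0.600, 1.13 and 1.04 CPM) and none in uterus, at least 44.6-fold higher in brain against a floor of 3 counts over the 4 uterus libraries.

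Per kilobase, the make-up of the family changed between the organs. Gpx4 took 60.4 ± 0.714% of the summed CPM per kilobase in brain and 11.5 ± 0.283% in uterus, while Gpx1 took 27.0 ± 1.13% and 37.0 ± 1.26% (SD, n = 4 each). The share of Gpx3 was 6.70% in brain and 22.8% in uterus, that of Gpx8 4.01% and 17.0%, and that of Gpx2 0.0475% and 6.69%. For each of these 5 the libraries separated completely, which gives the smallest p that an exact permutation test of 4 against 4 allows (p = 0.0286, two-sided, adjusted p = 0.0317 over 40 shares). Summed over the family, uterus was 4.11-fold above brain, at 605 ± 21.2 against 147 ± 7.63 CPM per kilobase. Gpx2 and Gpx4 have processed pseudogenes at 98% identity or more that are not rows of the table, so a part of their reads could come from or be lost to those copies.

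**Figure D2:**
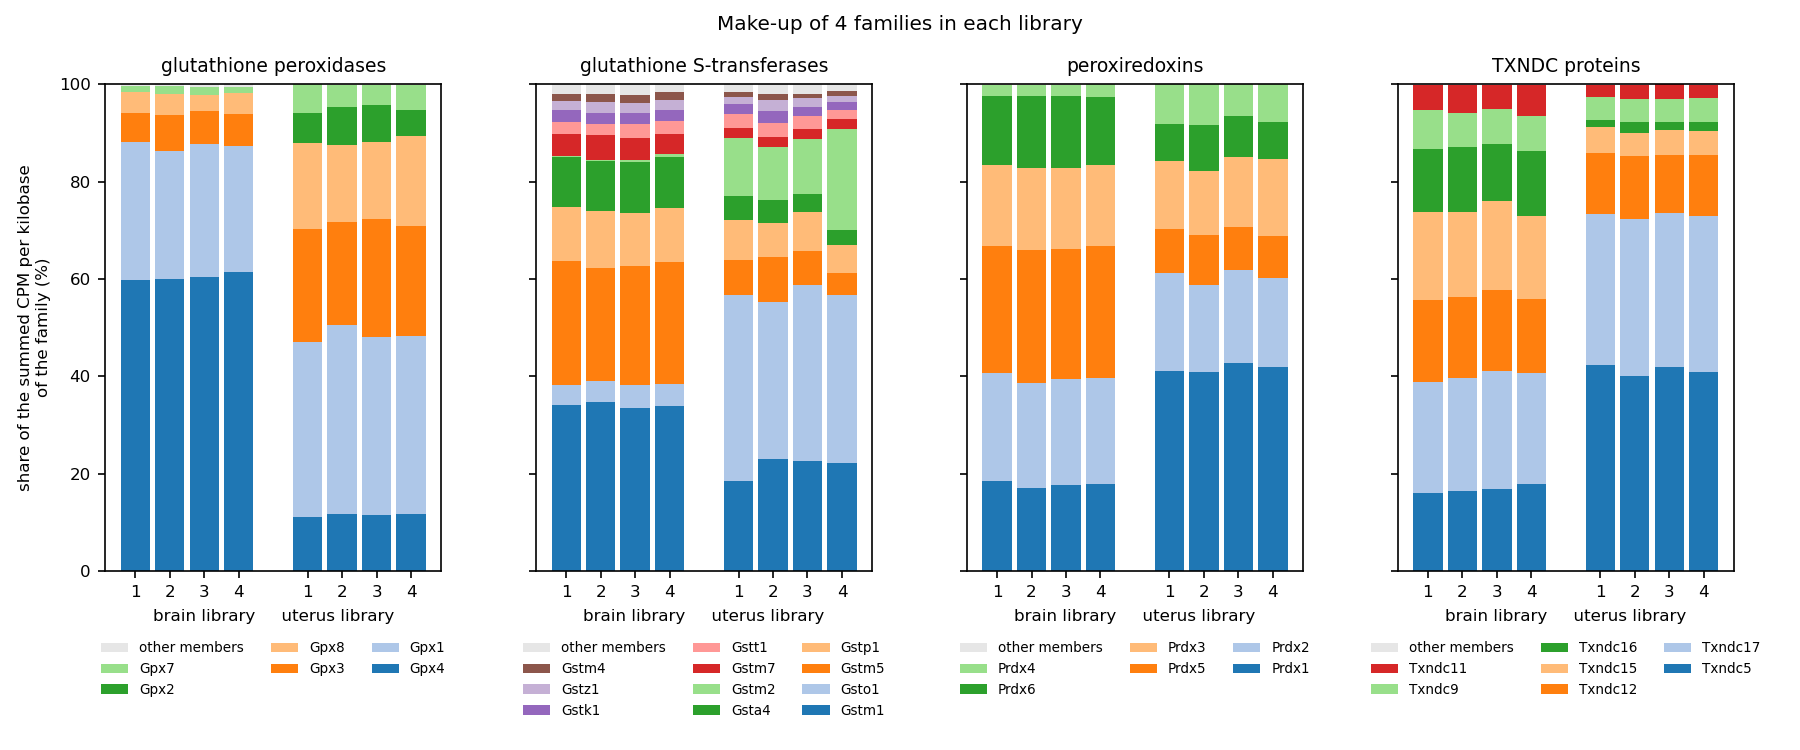
Share of each gene (vertical axis, percent) in the summed CPM per kilobase of its family, as stacked bars for brain libraries 1 to 4 and uterus libraries 1 to 4; genes under 1% in both organs are pooled in light grey. Gpx4 takes 60.4% of the peroxidase total in brain and 11.5% in uterus, and Gsto1 takes 4.40% of the transferase total in brain and 35.3% in uterus.

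Glutathione S-transferases were the largest family, with 22 genes of which 19 were tested: 12 were higher in uterus, 4 higher in brain and 3 did not pass. Gsto1, of the omega class that also reduces dehydroascorbate, gave 23.2, 23.2, 24.9 and 24.1 CPM in brain and 402, 290, 344 and 474 CPM in uterus. The organs were far apart, 15.8-fold (log2 3.98 ± 0.15, adjusted p = 1.6e-09 by edgeR), and the uterus libraries were more spread than those of brain. At 187 ± 39.0 CPM per kilobase it was the transferase with the highest per-length level in uterus, against 11.8 ± 0.402 in brain. Its neighbour Gsto2 on chromosome 19 lay under 1.1 CPM in every library and was called in the other direction, 1.97-fold higher in brain.

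The 7 mu-class genes stand in a single cluster of 149.1 kb on chromosome 3 (chr3:107895821-108044894, GRCm38) and did not move as a block. Gstm2 gave 1.78, 1.43, 1.76 and 2.39 CPM in brain and 105, 81.4, 89.6 and 237 CPM in uterus. It was 69.7-fold higher in uterus (log2 6.12 ± 0.42), with uterus library 4 well above the others. Without that library the log2 fold change was 5.66. Gstm1, the main mu-class transferase of mouse liver, had the highest per-length level of any transferase in brain, 91.3 ± 2.55 CPM per kilobase, and 114 ± 25.3 in uterus. It gave 139, 136, 133 and 130 CPM in brain and 142, 150, 157 and 223 CPM in uterus. Brain ended just below uterus (log2 0.32 ± 0.13, adjusted p = 0.036), and the call was lost when any one brain library was left out (adjusted p = 0.0539 to 0.0841) and with RLE scaling (0.0586). Without uterus library 4 its log2 fold change was 0.17, with an adjusted p of 0.0113.

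Farther along the same cluster the direction turned. Gstm5, a brain and testis form, gave 90.6, 79.9, 84.4 and 83.9 CPM in brain and 47.6, 53.1, 42.0 and 38.5 CPM in uterus. Every brain library was above every uterus library, by 1.87-fold (log2 -0.90 ± 0.094). Gstm6 averaged 5.20 ± 1.44 CPM in brain and 1.17 ± 0.260 CPM in uterus, 4.45-fold higher in brain and past the 2-fold test (adjusted p = 0.00041 of the 2-fold test by edgeR). Gstm7, at 19.8 CPM in brain and 17.6 CPM in uterus, did not pass, but without uterus library 4 it was called higher in brain (log2 -0.34, adjusted p = 0.00504). Gstm4 did not pass either (log2 0.29 ± 0.14), but it was called higher in uterus without uterus library 3 (log2 0.39, adjusted p = 0.0129) and with upper-quartile scaling (log2 0.55, adjusted p = 0.00296). The gene order from low to high coordinate was Gstm5, Gstm7, Gstm6, Gstm3, Gstm2, Gstm1 and Gstm4, so Gstm2 lies between Gstm3, which had too few reads to test, and Gstm1.

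All 3 tested theta-class genes were higher in uterus. Gstt2 gave 2.67, 1.80, 2.93 and 3.12 CPM in brain and 13.4, 12.6, 11.2 and 11.6 CPM in uterus. The organs did not overlap and the difference was 4.63-fold (log2 2.21 ± 0.17). Its neighbours on chromosome 10 (cluster at chr10:75774115-75837424) were 3.93-fold higher for Gstt3 and 1.93-fold higher for Gstt1. The alpha class was mixed. Gsta4, which conjugates the reactive aldehydes of lipid peroxidation, gave 35.5, 35.0, 35.8 and 34.6 CPM in brain and 31.5, 26.3, 21.2 and 25.7 CPM in uterus. Brain was higher by 1.34-fold in libraries that did not overlap, but with upper-quartile scaling the difference did not pass (adjusted p = 0.144). Gsta3, at 1.71 CPM in brain and 2.04 CPM in uterus, did not pass. Gstp1, Gstk1 and Gstz1 were higher in uterus by 1.28, 1.72 and 1.55-fold, and Gstcd, which carries only a C-terminal transferase domain, by 2.31-fold. Gstp1 and Gstp2 share stretches of 100% identity, Gsta2 resembles Gsta1 and unnamed gene models, Gstt3 shares exons with a gene model, and Gstm1 resembles pseudogenes, so the split of reads within these pairs is uncertain.

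As shares of all transferase transcripts per kilobase, the mu class took 66.3 ± 0.467% in brain and 45.5 ± 4.12% in uterus, and the omega class 4.54 ± 0.240% and 35.3 ± 2.52% (SD, n = 4 each). The alpha class took 10.5% and 4.25%, and the pi class 11.2% and 7.52%. In these 4 classes the libraries separated completely, with p = 0.0286 in the exact permutation test, but adjusted over 7 classes the p is 0.05, which does not pass. Theta, kappa and zeta shares overlapped between the organs. Within the mu class, Gstm1 took 34.0% of all transferase transcripts in brain and 21.6% in uterus, Gstm5 24.7% and 6.98%, and Gstm2 0.409% and 13.8%. Each of these 3 separated the organs completely (exact permutation p = 0.0286, adjusted p = 0.0317). Summed over the 21 transferases, uterus was 1.97-fold above brain, at 529 against 268 CPM per kilobase. Of these sums, Gsto1 gave 187 in uterus and 11.8 in brain, and Gstm2 76.4 and 1.10. The sum is therefore led by these genes and does not stand for a rise across the family. Uterus libraries 1 to 4 summed to 519, 444, 471 and 680.

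Glutathione synthesis went against the peroxidases and most transferases. Of 4 genes, 3 were higher in brain and 1 higher in uterus, none of which passed the 2-fold test, with a median log2 fold change of -0.48. Gclm, the modifier subunit of glutamate-cysteine ligase, gave 87.9, 83.6, 84.9 and 83.1 CPM in brain and 35.3, 46.2, 44.4 and 45.2 CPM in uterus. Brain was 1.98-fold higher with no overlap (log2 -0.99 ± 0.081), and uterus library 1 was the lowest. Gclc, the catalytic subunit, gave 78.3, 81.5, 77.0 and 77.3 CPM in brain and 47.8, 51.3, 56.6 and 55.8 CPM in uterus, 1.49-fold higher in brain. Both subunits were thus higher in brain, in every library. Glutathione synthetase, Gss, averaged 24.1 ± 1.87 CPM in brain and 18.3 ± 1.21 CPM in uterus, and this difference was lost with upper-quartile scaling (adjusted p = 0.137). Gsr, the reductase that recovers oxidised glutathione, was the exception: 27.0, 29.9, 30.2 and 27.1 CPM in brain and 55.9, 49.0, 60.9 and 74.2 CPM in uterus, 2.10-fold higher in uterus (log2 1.07 ± 0.12, adjusted p = 8.8e-06 by edgeR). The sum of the 4 per kilobase was 48.8 ± 0.696 in brain and 45.7 ± 4.79 in uterus, which did not pass (exact permutation p = 0.314).

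**Figure D3:**
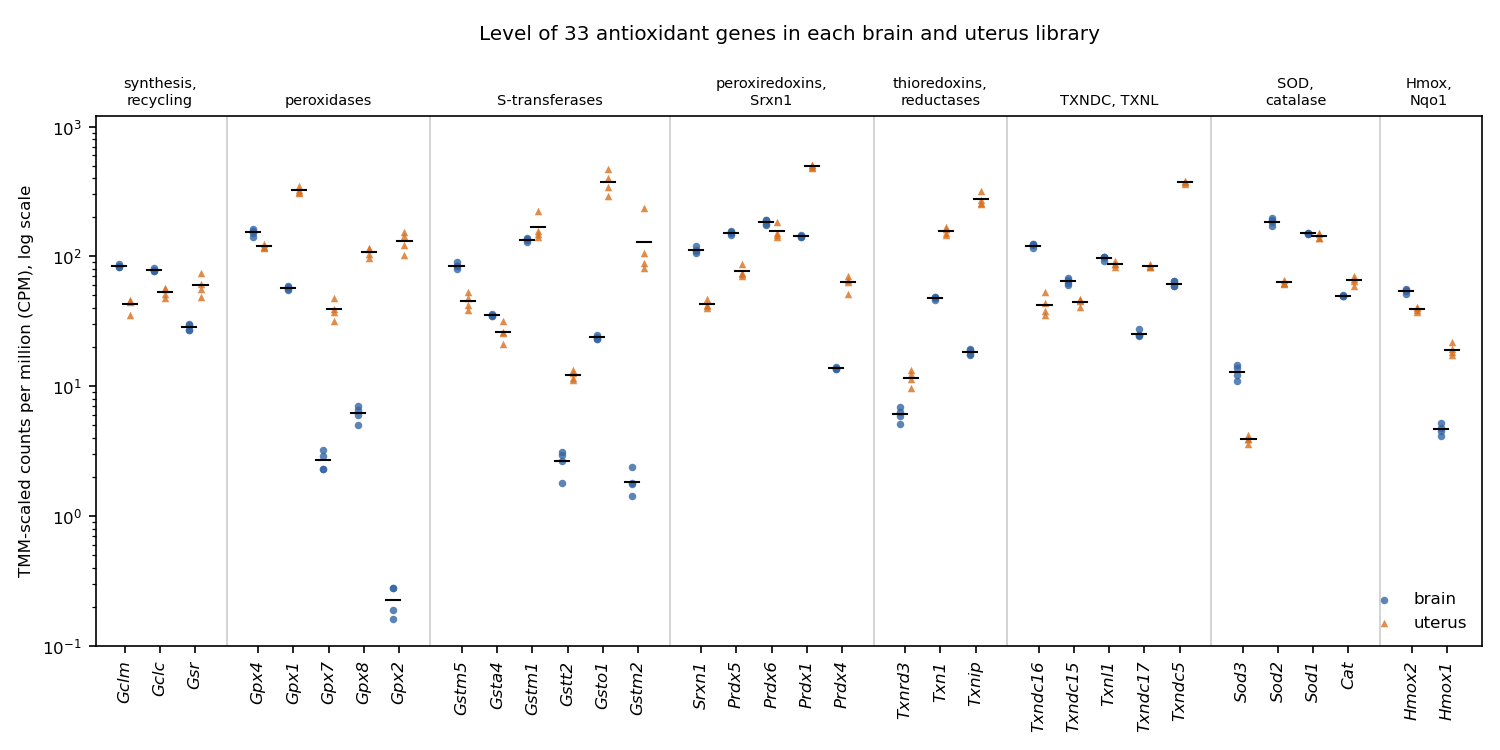
Level of 33 antioxidant genes (vertical axis, TMM-scaled CPM on a log scale) in each brain library (circles) and uterus library (triangles), grouped by role and ordered within a role by fold change; black bars are means of 4 libraries. Gpx2 lies between 0.162 and 0.277 CPM in brain and between 103 and 154 CPM in uterus, whereas Sod1 lies near 150 CPM in both organs.

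Peroxiredoxins reduce peroxides with a reactive cysteine, which thioredoxin restores in most of them. Of 8 genes here, with sulfiredoxin counted, 7 were tested: 4 were higher in uterus and 3 higher in brain. Prdx1, the abundant cytosolic form, gave 147, 140, 144 and 141 CPM in brain and 484, 505, 491 and 505 CPM in uterus. Uterus was 3.47-fold higher with little spread in either organ (log2 1.80 ± 0.046, adjusted p = 1.3e-10 by edgeR). Prdx4, the form of the endoplasmic reticulum, gave 13.5, 13.7, 13.6 and 14.1 CPM in brain and 66.2, 70.9, 51.7 and 64.0 CPM in uterus, 4.60-fold higher. Prdx5, found in mitochondria, peroxisomes and cytosol, took the opposite direction with 146, 158, 154 and 150 CPM in brain and 74.6, 87.8, 70.8 and 73.1 CPM in uterus. In brain it was 1.99-fold higher with no overlap, and it had the highest per-length level of the family there, 71.1 ± 2.36 CPM per kilobase.

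The mitochondrial Prdx3 and the cytosolic Prdx2 were higher in uterus by small steps, 1.27-fold each, in libraries that did not overlap. Prdx2 is also abundant in red blood cells. All 5 red cell markers were higher in brain, with sums of 77.7 to 263 CPM against 49.4 to 79.1 CPM in uterus, a direction opposite to that of Prdx2, and their part in its level was not tested. Prdx6, which also has phospholipase activity, gave 177, 190, 190 and 175 CPM in brain and 141, 185, 153 and 145 CPM in uterus. The organs overlapped through uterus library 2, and the call for brain (log2 -0.23 ± 0.084, adjusted p = 0.025) did not survive upper-quartile scaling, where the sign turned (log2 0.02). It was also lost without brain library 2 or 3, or without uterus library 1, 3 or 4 (adjusted p = 0.0566 to 0.0887). Srxn1, sulfiredoxin, repairs peroxiredoxins whose cysteine has been overoxidised. It gave 106, 121, 112 and 109 CPM in brain and 41.3, 40.4, 42.2 and 47.3 CPM in uterus. Brain was 2.62-fold higher with no overlap and past the 2-fold test (log2 -1.39 ± 0.064, adjusted p = 3.1e-05 of the 2-fold test by edgeR).

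Within the family, Prdx1 took 17.7 ± 0.542% of the summed CPM per kilobase in brain and 41.7 ± 0.845% in uterus, and Prdx5 26.9 ± 0.534% and 9.14 ± 0.668%. Both separated the organs completely (exact permutation p = 0.0286, adjusted p = 0.0317, n = 4 each). Prdx4 took 2.46% and 7.66%. The family as a whole was 1.48-fold higher in uterus. Prdx1 has a processed pseudogene at 98.3% identity over 597 nt.

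The thioredoxin system itself was higher in uterus for 5 of its 6 genes, and the sixth did not pass. The reductases are selenoproteins whose TGA lies near the end of the coding sequence, shown here beside the peroxidases above because the position differs: in each, the codon after the capitals is followed at once by the stop codon.
Txnrd1: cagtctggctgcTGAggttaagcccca
Txnrd2: gtgactggttgcTGAggctaagtcacc
Txnrd3: cagaaaggctgcTGAggctagccctgc
The capitals mark the selenocysteine codon, at chr10:82896037-82896039 for Txnrd1, chr16:18477772-18477774 for Txnrd2 and chr6:89674789-89674791 for Txnrd3, all on the plus strand of GRCm38. Txnrd1, the cytosolic reductase, averaged 80.9 ± 1.01 CPM in brain and 149 ± 9.39 CPM in uterus, 1.84-fold higher. Txnrd3, a reductase with an added glutaredoxin domain, gave 6.94, 5.14, 6.28 and 5.89 CPM in brain and 13.3, 11.3, 9.64 and 12.4 CPM in uterus, 1.92-fold higher. The mitochondrial Txnrd2, with 12.3 CPM in brain and 12.8 CPM in uterus, did not pass (log2 0.05 ± 0.099).

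Thioredoxins act through a pair of cysteines close together in the protein. The coding windows of the cytosolic Txn1 and the mitochondrial Txn2 are given for comparison with the thioredoxin-domain proteins that follow, and the capitals mark the stretch from the first cysteine codon to the second.
Txn1: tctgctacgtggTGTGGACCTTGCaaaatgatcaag
Txn2: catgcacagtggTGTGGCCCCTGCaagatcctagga
The cysteine codons lie at chr4:57951821-57951832 and chr15:77924651-77924662, both on the minus strand. Txn1 gave 45.9, 47.9, 49.0 and 49.1 CPM in brain and 162, 167, 147 and 152 CPM in uterus, 3.28-fold higher with no overlap (log2 1.71 ± 0.054). It had the highest per-length level of its group in both organs, 45.6 ± 1.42 CPM per kilobase in brain and 150 ± 8.72 in uterus. Txn2 was 1.28-fold higher in uterus, 114 ± 4.26 against 88.8 ± 4.54 CPM. Of the thioredoxin transcripts per kilobase, Txn1 made up 68.4 ± 0.816% in brain and 84.7 ± 1.21% in uterus. Without length correction, Txn1 made up 35.1% and Txn2 64.9% in brain, and Txn1 58.0% in uterus.

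Txnip binds reduced thioredoxin, blocks it, and limits glucose uptake. It showed the widest difference of the group, with 19.3, 17.5, 19.2 and 17.6 CPM in brain and 259, 319, 270 and 255 CPM in uterus. The organs were 15.0-fold apart (log2 3.91 ± 0.086, adjusted p = 4.8e-11 by edgeR). The inhibitor was therefore higher in the organ where thioredoxin and its cytosolic reductase were also higher. Per kilobase, Txnip stood below Txn1 in both organs, at 5.89 ± 0.312 against 45.6 in brain and 88.3 ± 9.39 against 150 in uterus.

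Proteins named for a thioredoxin domain were mixed. Of 12, 10 were tested: 6 were higher in uterus, 3 higher in brain and 1 did not pass. A tryptophan codon followed by a cysteine codon, any pair of codons and another cysteine codon was found in 8 of the 14 thioredoxin and thioredoxin-like genes searched, once each except for Txndc5, which has it 3 times. These are shown with the single site of the other strongly changed gene that has one, the capitals again running from cysteine codon to cysteine codon.
Txndc5 site a: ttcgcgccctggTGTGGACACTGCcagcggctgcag
Txndc5 site b: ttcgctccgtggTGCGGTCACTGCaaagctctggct
Txndc5 site c: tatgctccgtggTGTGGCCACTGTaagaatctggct
Txndc17: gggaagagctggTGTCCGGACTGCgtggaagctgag
The Txndc5 sites lie at chr13:38523466-38523477, chr13:38510199-38510210 and chr13:38503548-38503559 on the minus strand, and that of Txndc17 at chr11:72207750-72207761 on the plus strand. Txndc16, Txndc15, Txndc9 and the 3 Txnl genes had no such site in the transcript searched. Cysteine pairs without a tryptophan codon before them were not searched for, so these genes may still hold one.

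Txndc5, a protein disulfide isomerase of the endoplasmic reticulum, gave 59.1, 59.5, 64.1 and 64.5 CPM in brain and 382, 358, 376 and 376 CPM in uterus. It was 6.04-fold higher in uterus with a narrow spread (log2 2.59 ± 0.053, adjusted p = 3.1e-11 by edgeR). Txndc17, a cytosolic thioredoxin-related disulfide reductase, gave 24.8, 24.9, 27.7 and 24.2 CPM in brain and 83.2, 84.8, 83.3 and 87.0 CPM in uterus, 3.33-fold higher. Both were past the 2-fold test, and in each the organs were far from overlapping. Txndc12, of the endoplasmic reticulum, was 1.86-fold higher, Txndc9 1.59-fold and Txndc11 1.22-fold, the last with overlapping libraries. Txndc9 has a processed pseudogene that matches it over 681 nt at 98.7% identity, so its reads may be split with that copy. Txnl4a, a small spliceosome protein, was 1.55-fold higher, but it shares 357 nt at full identity with a gene model of the same table.

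In the other direction, Txndc16 gave 121, 124, 115 and 124 CPM in brain and 35.1, 53.1, 37.7 and 44.0 CPM in uterus. Brain was 2.85-fold higher and past the 2-fold test (log2 -1.51 ± 0.12, adjusted p = 0.0003 of the 2-fold test by edgeR). It shares 155 nt at 98.1% identity with Chpt1 and 150 nt at 98.7% with Setd4, so reads from those stretches are uncertain. Txndc15 gave 65.7, 62.5, 68.7 and 60.1 CPM in brain and 47.2, 40.9, 45.9 and 45.1 CPM in uterus, 1.44-fold higher in brain with no overlap. Txnl1, a thioredoxin-like partner of the proteasome, gave 99.2, 99.1, 91.7 and 98.3 CPM in brain and 87.5, 82.4, 87.7 and 91.7 CPM in uterus. The organs met at brain library 3 and uterus library 4. Its call for brain (log2 -0.15 ± 0.049, adjusted p = 0.014) turned to log2 0.10 with upper-quartile scaling, with an adjusted p of 0.0672, and was lost without brain library 2 (adjusted p = 0.0532). Txnl4b, at 13.4 CPM in brain and 11.4 CPM in uterus, did not pass with edgeR, but did with DESeq2 (adjusted p = 0.0191) and without uterus library 2 (0.0456). In the summed CPM per kilobase of the 9 TXNDC genes, Txndc5 took 16.7 ± 0.814% in brain and 41.3 ± 0.977% in uterus, and Txndc15 17.8% and 5.08%.

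Of the 3 superoxide dismutases, 2 were higher in brain and 1 did not pass. Sod2, the manganese enzyme of mitochondria, gave 199, 183, 171 and 189 CPM in brain and 62.0, 60.9, 66.3 and 62.7 CPM in uterus. Brain was 2.94-fold higher in all libraries (log2 -1.56 ± 0.057, adjusted p = 1.6e-09 by edgeR). Sod3, the extracellular enzyme, gave 11.0, 12.3, 14.6 and 13.7 CPM in brain and 3.93, 3.60, 3.91 and 4.22 CPM in uterus, 3.29-fold higher in brain. Both were past the 2-fold test. Sod1, the copper and zinc enzyme of the cytosol, gave 151, 152, 150 and 149 CPM in brain and 148, 150, 138 and 139 CPM in uterus. The organs overlapped, and the difference (log2 -0.06 ± 0.045, adjusted p = 0.2) did not pass. This depends on the processing, for with upper-quartile scaling in edgeR Sod1 was called higher in uterus (log2 0.19, adjusted p = 0.00291). With DESeq2 it was called higher in brain (log2 -0.11, adjusted p = 0.0286). RLE scaling in edgeR gave the same log2 fold change of -0.11 without a call (adjusted p = 0.0502). Sod1 made up most of the dismutase transcripts per kilobase, 63.3 ± 0.967% in brain and 83.1 ± 1.09% in uterus, while Sod2 took 31.0 ± 1.53% and 14.5 ± 0.927%. This order in brain depends on the length correction. Without it, Sod2 took 53.2% and Sod1 43.1% in brain, and Sod1 took 68.2% in uterus. The summed level of the 3 was 1.37-fold higher in brain. Cat, catalase, gave 49.3, 49.3, 49.9 and 50.7 CPM in brain and 70.2, 64.4, 58.9 and 67.3 CPM in uterus, 1.31-fold higher in uterus with no overlap.

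Heme oxygenases split heme into iron, carbon monoxide and biliverdin. The inducible Hmox1 gave 4.80, 4.50, 5.22 and 4.12 CPM in brain and 21.7, 18.3, 17.3 and 19.3 CPM in uterus. It was 4.11-fold higher in uterus and past the 2-fold test (log2 2.04 ± 0.11, adjusted p = 1.3e-06 of the 2-fold test by edgeR). The constitutive Hmox2 gave 56.3, 54.2, 51.6 and 54.9 CPM in brain and 40.6, 38.9, 37.3 and 39.8 CPM in uterus, 1.39-fold higher in brain with no overlap. Hmox2 held the larger share per kilobase in both organs, 90.2 ± 1.13% in brain and 61.8 ± 1.54% in uterus. The sum of both was 27.1 ± 0.785 CPM per kilobase in brain and 28.6 ± 1.68 in uterus, which did not pass (exact permutation p = 0.2, adjusted p = 0.225 over 9 families). Nqo1, a quinone reductase often used as a readout of NRF2, was low in both organs, 5.61 ± 0.473 CPM in brain and 6.13 ± 1.35 CPM in uterus, and did not pass with TMM scaling (log2 0.13 ± 0.16, adjusted p = 0.46). With upper-quartile scaling it was called higher in uterus (log2 0.38, adjusted p = 0.0433).

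Of the 9 family sums tested, 7 separated the organs completely, each with an exact permutation p of 0.0286 and an adjusted p of 0.0367, which is the smallest the design gives for them. The sums of peroxidases, thioredoxins (2.65-fold), the TXNDC genes (2.45-fold), transferases, reductases (1.71-fold) and peroxiredoxins were higher in uterus. The sum of dismutases was higher in brain.

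The antioxidant response element, to which NRF2 binds, has the core TGACNNNGC. It was searched on both strands from 250 bases before to 50 bases after each start site in the RefSeq promoters of GRCm38.p6. At least 1 core was found in 11 of the 56 members with a promoter entry (19.6%), beside 14.0% of all genes with an entry. Counted by promoter, 11 of 76 member promoters (14.5%) had a core, beside 12.4% of all promoters of that length. Of the 11 members with a core, 4 were higher in uterus, 3 higher in brain, 3 did not pass and 1 was not tested. Genes with a core thus lay on both sides. The windows of 6 of them are shown because they include called genes of both directions, with the core in capitals as read on the gene's strand, where GCNNNGTCA is the core of the opposite strand.
Prdx1: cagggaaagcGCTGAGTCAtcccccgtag
Txnrd1: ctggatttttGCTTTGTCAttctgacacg
Txndc5: gcctcgccgcTGACGTGGCgctagccgcc
Gclm: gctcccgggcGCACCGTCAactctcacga
Gstm5: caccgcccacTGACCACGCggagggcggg
Srxn1: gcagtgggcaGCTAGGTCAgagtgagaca
The first 3 genes were higher in uterus and the last 3 higher in brain. The core of Prdx1 begins 133 bases before the start site, within chr4:116685456-116685484, and that of Gclm 134 bases before it, within chr3:122245413-122245441. The core of Srxn1 lies after the start site, within chr2:152105542-152105570. A match to these letters is not a measured binding site.

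Genes that regulate, feed or draw on these enzymes were taken from 8 lists. Their counts stand beside 43.5% of all genes tested higher in uterus and 43.6% higher in brain, with a median log2 fold change of 0.01. No list was tested as a set. Of 13 genes of the KEAP1-NRF2 axis, 4 were higher in uterus, 7 higher in brain and 2 did not pass, with a median log2 fold change of -0.17. With upper-quartile scaling 6 were higher in uterus and 5 higher in brain. Nfe2l2, which encodes NRF2, averaged 23.1 ± 1.07 CPM in brain and 131 ± 7.47 CPM in uterus (log2 2.50 ± 0.059), and its partner Mafk 9.71 and 22.0 CPM. Btrc, of a ligase that marks NRF2 for breakdown, averaged 151 CPM in brain and 28.7 CPM in uterus (log2 -2.40 ± 0.078), and the repressor Bach2 14.9 and 6.08 CPM. The related Bach1 of the same list went the other way. It was higher in uterus with upper-quartile scaling (log2 0.77) and without uterus library 4 (log2 0.52, adjusted p = 4.36e-05 by edgeR).

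Of 20 genes of glutathione supply, export and breakdown, 11 were higher in uterus, 7 higher in brain and 2 did not pass. Ggt6 of the gamma-glutamyltransferase family averaged 0.0481 CPM in brain and 15.7 CPM in uterus, and the aminopeptidase Anpep, which can complete the breakdown of glutathione outside the cell, 5.93 and 620 CPM. In brain, Ggt7 averaged 126 CPM against 10.4 CPM in uterus (log2 -3.60 ± 0.12). Slc7a11, the cystine importer that supplies glutathione synthesis, averaged 60.4 ± 2.71 CPM in brain and 8.95 ± 7.35 CPM in uterus (log2 -2.75 ± 0.42, adjusted p = 0.00013 by edgeR). Its uterus libraries gave 5.11, 6.35, 4.44 and 19.9 CPM, and without library 4 the log2 fold change was -3.49. The 7 genes of the membrane-bound transferase superfamily and Hpgds gave 5 higher in uterus and 2 higher in brain. Mgst1 led with 10.7 CPM in brain and 86.1 CPM in uterus, followed by Alox5ap at 2.09 and 10.2 CPM, and Mgst3 went the other way with 61.9 and 11.8 CPM.

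NADPH supply was higher in uterus for 11 of 14 genes and higher in brain for 3. Its median log2 fold change was 0.71, beside 0.01 for all genes tested. Pgls of the pentose phosphate pathway averaged 19.2 CPM in brain and 69.0 CPM in uterus and the folate enzyme Mthfd2 11.9 and 36.7 CPM, whereas Aldh1l1, an astrocyte folate enzyme, averaged 64.6 and 8.87 CPM and the malic enzyme Me3 46.2 and 10.4 CPM. Glutaredoxins, sestrins and methionine sulfoxide reductases gave 5 higher in uterus and 6 higher in brain of 11. Among them Msrb3 averaged 12.5 CPM in brain and 133 CPM in uterus and Msrb1 15.8 and 57.1 CPM, while Msra averaged 27.6 and 13.1 CPM and the glutaredoxin Glrx2 96.0 and 51.9 CPM.

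The 14 genes of selenoprotein synthesis and selenium transport were even, with 5 in each direction and 4 that did not pass, but with upper-quartile scaling 9 were higher in uterus and 3 higher in brain. The receptors that take up selenoprotein P differed most: Lrp2 averaged 1.10 CPM in brain and 259 CPM in uterus (log2 7.89 ± 0.36, and 7.55 without uterus library 4, the highest at 425 CPM), and Lrp8 121 CPM in brain and 5.71 CPM in uterus (log2 -4.40 ± 0.084). Selenon was higher in uterus (40.5 and 92.5 CPM) and Selenow higher in brain (297 and 158 CPM). After heme oxygenase, 5 of 8 genes of heme and iron were higher in uterus and 2 higher in brain. The ferritin light chain Ftl1 averaged 64.5 CPM in brain and 269 CPM in uterus and the biliverdin reductase Blvrb 6.77 and 16.4 CPM, whereas the heme carrier Slc48a1 averaged 135 and 41.5 CPM and the ferritin heavy chain Fth1 1513 and 920 CPM. Of 20 oxidant sources, 15 were tested, and 11 were higher in uterus, 2 higher in brain. The NADPH oxidase subunits Cyba (3.32 and 42.5 CPM) and Cybb (1.72 and 13.5 CPM) were higher in uterus. Ero1l (85.6 and 51.2 CPM) and Ero1lb (29.3 and 11.2 CPM), which make disulfides in the endoplasmic reticulum, were higher in brain.

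Within an organ the libraries were close for most members. The median coefficient of variation was 5.77% over 55 members in brain and 8.30% over 57 in uterus, beside 6.40% and 8.39% for all tested genes at 1 CPM or more. The widest spreads in uterus were in transferases. Against the mean of the other 3 uterus libraries, library 4 was 2.57 times as high for Gstm2, 1.54 for Gstm7, 1.49 for Gstm1, 1.44 for Nqo1, 1.37 for Gsto1 and 1.34 for Gsr. These 6 of 57 members (10.5%) were over 1.3 times as high there, beside 6.56% of all genes, while the other uterus libraries had 1, 3 and 1 such members. On the low side, 3 members lay under the inverse of 1.3 in library 4, and 1, 4 and 5 in libraries 1 to 3. Of all genes, 1122 lay under it in library 4 and 903 over 1.3. The mu cluster did not rise as a block there, with Gstm6 at 0.657 and Gstm5 at 0.810 in library 4. Without that library, Gsto1 was at log2 3.87 in place of 3.98, Gsr at 0.97 in place of 1.07 and Nqo1 at -0.0045 in place of 0.13.

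**Figure D4:**
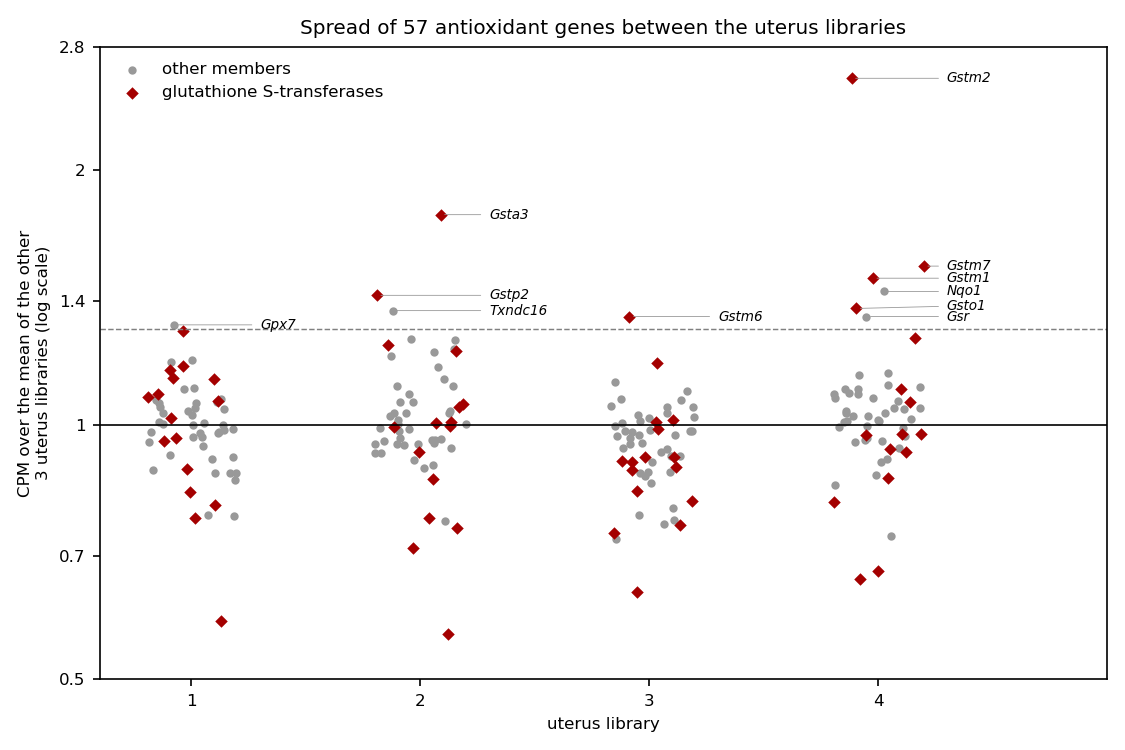
Level of each of 57 antioxidant genes in a uterus library divided by its mean in the other 3 uterus libraries (vertical axis, log scale), with transferases as red diamonds and other members as grey circles; the dashed line marks 1.3. Gstm2 in uterus library 4 lies highest, at 2.57, and 6 genes lie above the dashed line in that library.

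Cell markers also varied between the uterus libraries. The summed level of 5 epithelial markers was 578, 589, 637 and 699 CPM in libraries 1 to 4, and that of 5 gland markers 127, 852, 274 and 72.8 CPM, so library 4 had the highest epithelial and the lowest gland sum. The differences in gland sum came mostly from the implantation proteases Prss29, at 46.4, 559, 123 and 2.28 CPM, and Prss28, at 21.5, 222, 58.7 and 0.653 CPM. In library 4 these proteases were a small part of the sum, and most of it came from Lif and Cxcl15, the other markers of the list. Its low gland sum therefore does not stand for all gland markers. Foxa2, which defines the glands, was at 8.96, 12.3, 13.6 and 8.86 CPM. The part of these cells in the levels of Gstm2 and the other members was not tested.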

How the data were processed

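The deposited table holds raw counts per Ensembl gene for 4 brain and 4 uterus libraries, in whole numbers and without normalization. Per the submitters' processing notes, FastQC, HISAT2 2.0.3, featureCounts and edgeR were used with GRCm38.p5, and per the labels' protocols the kit was stranded and removed ribosomal RNA. How strand and multi-mapping reads were handled, and which annotation release was used, is not given in the sources used here. All 8 columns were matched to samples by title, and the chi-square per degree of freedom between libraries of an organ was 15.6 to 86.4, so none was a repeat of another.

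The members and lists were chosen with earlier results of these data known. Counts were scaled by TMM (factors 0.907 to 0.924 in brain, 1.07 to 1.11 in uterus), filtered by filterByExpr by organ, and compared with the quasi-likelihood test of edgeR 4.0.16 in R 4.3.3, two-sided, with Benjamini-Hochberg adjustment over 16074 genes. Changes past 2-fold were tested with glmTreat. SE is the log2 fold change divided by the root of its F statistic. Family sums and shares used CPM per kilobase of merged exons (GENCODE M21) and exact permutation of libraries, whose smallest p is 0.0286. The procedure was tested on simulated data. DESeq2 1.42.0, limma 3.58.1, other scalings and filters, a replicate block and leaving out each library were alternatives.

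Within each role, values per library are given for the 3 called members at 10 CPM or more that differed most, the highest per-length level in each organ, and called members against the group's median. Other members at 1 CPM or more may be named, and so are those at 10 CPM or more that did not pass. Of each list, the 2 called genes at 10 CPM or more that differed most are named for each direction. Gpx6, Gsta2 and Gsto2, under 1 CPM on average, were named after their values were seen, as were Gsr, Nqo1 and the transferases singled out for uterus library 4. Bach1 of the KEAP1-NRF2 list was also named after its values were seen. Selenoprotein genes of the lists were matched by identifier. Copies were searched with BLAST+ 2.17.0 at 98% identity over 150 nt, and 12 members had one. Sequences are from GENCODE M21 transcripts and RefSeq promoters. Floors cover counting error only, since no molecular identifiers mark independent molecules.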

Additional observations from a re-analysis of the deposited data

Results flagged for a closer look

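In 9 of 119 groups of 4 libraries, 1 library lay apart from the other 3 by more than Dixon's 95% critical value, and chance alone would give about 6.0. Uterus library 4 was the one apart for Gstm2 (237 CPM, high), Gsto2 (0.699 CPM, high), Prdx3 (92.1 CPM, high) and Gss (16.5 CPM, low). Uterus library 1 was apart for Gclm (35.3 CPM, low) and Txndc11 (44.9 CPM, low). Among brain libraries, library 3 was apart for Gstt1 (11.6 CPM, high) and Txnl1 (91.7 CPM, low), and library 4 for Gstm6 (3.05 CPM, low).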

How the results depend on the processing

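Of 57 members at 1 CPM or more, 44 kept their direction and their side of the threshold under every alternative in which they were tested, and 1 of the 57, Gstp2, had no test with the filter of 1 CPM in 4 libraries. The counts of members higher in uterus (35) and in brain (18) ranged from 34 to 36 and from 16 to 19 with 1 library left out, and were 39 and 13 with upper-quartile scaling or library size alone, which put the median log2 fold change of all genes at 0.268 and 0.27, from 0.012. Gene by gene, upper-quartile scaling and library size alone reversed Prdx6 (0.0232 and 0.0273), Sod1 (0.1915 and 0.1938), Txnl1 (0.1022 and 0.1039), Gstm7 (0.0787 and 0.0789) and Txnl4b (0.0216 and 0.0233); of these, Sod1 alone passed the test there. They also called Gstm4 (0.5488 and 0.5502) and Txnrd2 (0.3083 and 0.3116) higher in uterus. The pathway lists were counted under both scalings and without uterus library 4, alternatives chosen after seeing the data: the list of selenoprotein synthesis and selenium transport went from 5 in each direction to 9 higher in uterus and 3 higher in brain under both scalings, and the other counts stayed within 1.5 times. With library size alone the summed level of glutathione synthesis and recycling turned to 0.1582, and that of the heme oxygenases passed at 0.3311. With 1 library left out, genes that did not pass ranged across 0: Gsta3 from -0.0002 to 0.4259, Nqo1 from -0.0045 to 0.2321 and Txnrd2 from -0.0248 to 0.1243. With brain libraries 2 to 4 and uterus libraries 1 and 3, Gsta3 was at -0.0305 and Nqo1 at -0.069. Without length correction, the sum of glutathione synthesis and recycling passed at -0.3163, that of the heme oxygenases turned to -0.0167, the class shares passed for alpha (-5.7462 percentage points), mu (-22.1638), pi (-4.7207), omega (34.2205) and kappa (-0.4849), and the shares of Txndc12 and Gstt1 turned to 0.0408 and -0.3151 points. The gene with the largest share of its family in brain then became Sod2 (53.2%), Txn2 (64.9%), Prdx6 (25.0%) and Txndc16 (30.4%). The share of Gstt1 ranged from -0.1221 to 0.2561 points with 1 library left out. In that comparison the sums and shares were set side by side by value and not tested. The cause of these changes was not tested.

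With a replicate block, 34 members were higher in uterus and 18 higher in brain, and past 2-fold 18 and 6. Gstm1 lost its call (0.30, adjusted p = 0.0513). Deviations of same-numbered libraries correlated at -0.124, -0.0448, 0.125 and 0.0985, so the numbers were not taken to pair the organs. The depth of these libraries limits Gpx6, Gsta2, Gsto2 and the 6 genes without a test.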
